A study of Homo sapiens with 16 samples.

Results

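The mRNAs of the nuclear pore complex were examined as a group of 30 protein-coding genes among the 16324 genes of the tables. Members were chosen by name: every protein-coding gene called NUP followed by a number, and TPR, RANBP2, POM121, POM121C, NDC1, AAAS, SEH1L, SEC13 and RAE1. RefSeq holds 31 protein-coding symbols of this kind, and the remaining symbol, NUP210L, was not analysed here. All 30 members had values in the tables for each bait, and no member was dropped by a further filter. How the authors filtered low counts is not stated.

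The series is a RIP-seq experiment, in which RNA that is pulled down with a tagged protein is sequenced beside the RNA of the lysate (input). Its 16 libraries come from cells labelled as UM-SCC-1, a long-used line from a squamous carcinoma of the head and neck. The cells stably expressed, from a lentivirus and after puromycin selection, strep-Vec (the tag vector alone, 3 pull-down and 3 input libraries), strep-ALKBH5 (3 and 3) or strep-RBM33 (2 and 2). ALKBH5 removes the methyl mark m6A from RNA, and RBM33 is an RNA-binding protein that the series title describes as an m6A reader. The baits were overexpressed: in the authors' deposited tables the average log2 CPM (read counts scaled to library size) of ALKBH5 mRNA was 12.30 in the ALKBH5 table and 6.68 in the RBM33 table. RBM33 mRNA stood at 13.90 in the authors' deposited RBM33 table and at 7.81 in the ALKBH5 table. The design text asks whether ALKBH5 and RBM33 share binding sites.

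The data used were 2 tables of the authors' own edgeR comparisons, with, for each gene, its log2 fold change and average log2 CPM and the F statistic, p-value and adjusted p-value of the test. They hold no value for any library, so no depth, standard deviation or n can be set beside a value, and replicates cannot be compared. Nothing in the labels tells whether replicates of a group came from separate cultures, and the spread behind each deposited p-value may thus be technical. Both tables are labelled siCtrl, which no library title names. Neither states which groups were compared nor which way the ratio runs. Whether a positive value stands for more or less RNA in the pull-down is therefore not settled here, and the words positive and negative refer only to the sign in the table. In the authors' deposited ALKBH5 table, the log2 fold change was 1.28 for ALKBH5 mRNA and 1.17 for RBM33 mRNA. The authors' deposited RBM33 table gave -0.21 and 3.41. What these values say of the direction was not tested. Of 5 markers fixed for squamous epithelium, EGFR and ITGA6 were in the tables, whereas KRT5, KRT14 and TP63 were not among their genes. The average log2 CPM was 4.61 and 4.43 for EGFR and 3.89 and 3.86 for ITGA6 in the authors' deposited tables for ALKBH5 and RBM33. Among markers of other cell types, COL1A1 was listed, at an average log2 CPM of 4.42 and 3.91 in the authors' deposited tables, and PTPRC and PECAM1 were not. What this says of the cells' identity was not tested.

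The nuclear pore complex is the channel through which proteins and RNA pass the nuclear envelope, and all mRNA leaves the nucleus through it. A membrane ring anchors it, an outer ring of Y-shaped complexes and an inner ring form its scaffold, and flexible nucleoporins rich in phenylalanine-glycine (FG) repeats fill the central channel. Filaments reach into the cytoplasm, where mRNPs are remodelled after export, and a basket of fibres faces the nucleoplasm.

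Nuclear pore mRNAs lay on both sides of 0 in each table, and members of the same ring had opposite signs. A gene is called at the authors' adjusted p under 0.05. In the authors' deposited ALKBH5 table, 13 of the 30 members were positive, 10 were negative and 7 were not called. Over all genes of that table, the positive share was 30.5% and the negative share 29.1%. The authors' deposited RBM33 table had 12 positive and 8 negative members and 10 not called, against 24.0% and 27.0% of all genes. Among protein-coding genes of at least the table's median abundance, the authors' deposited ALKBH5 table had 27.2% positive and 46.9% negative. The corresponding shares in the authors' deposited RBM33 table were 22.2% and 45.0%. Of the members, 43.3% were positive and 33.3% negative in the former, and 40.0% and 26.7% in the latter. The median member stood at -0.02 in the authors' deposited ALKBH5 table, beside 0.03 for all genes and -0.08 for protein-coding genes. In the authors' deposited RBM33 table it stood at 0.04, beside -0.02 and -0.13. Members ranged from -1.42 to 1.33 in the authors' deposited ALKBH5 table and from -1.52 to 1.30 in the RBM33 table.

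**Figure D1:**
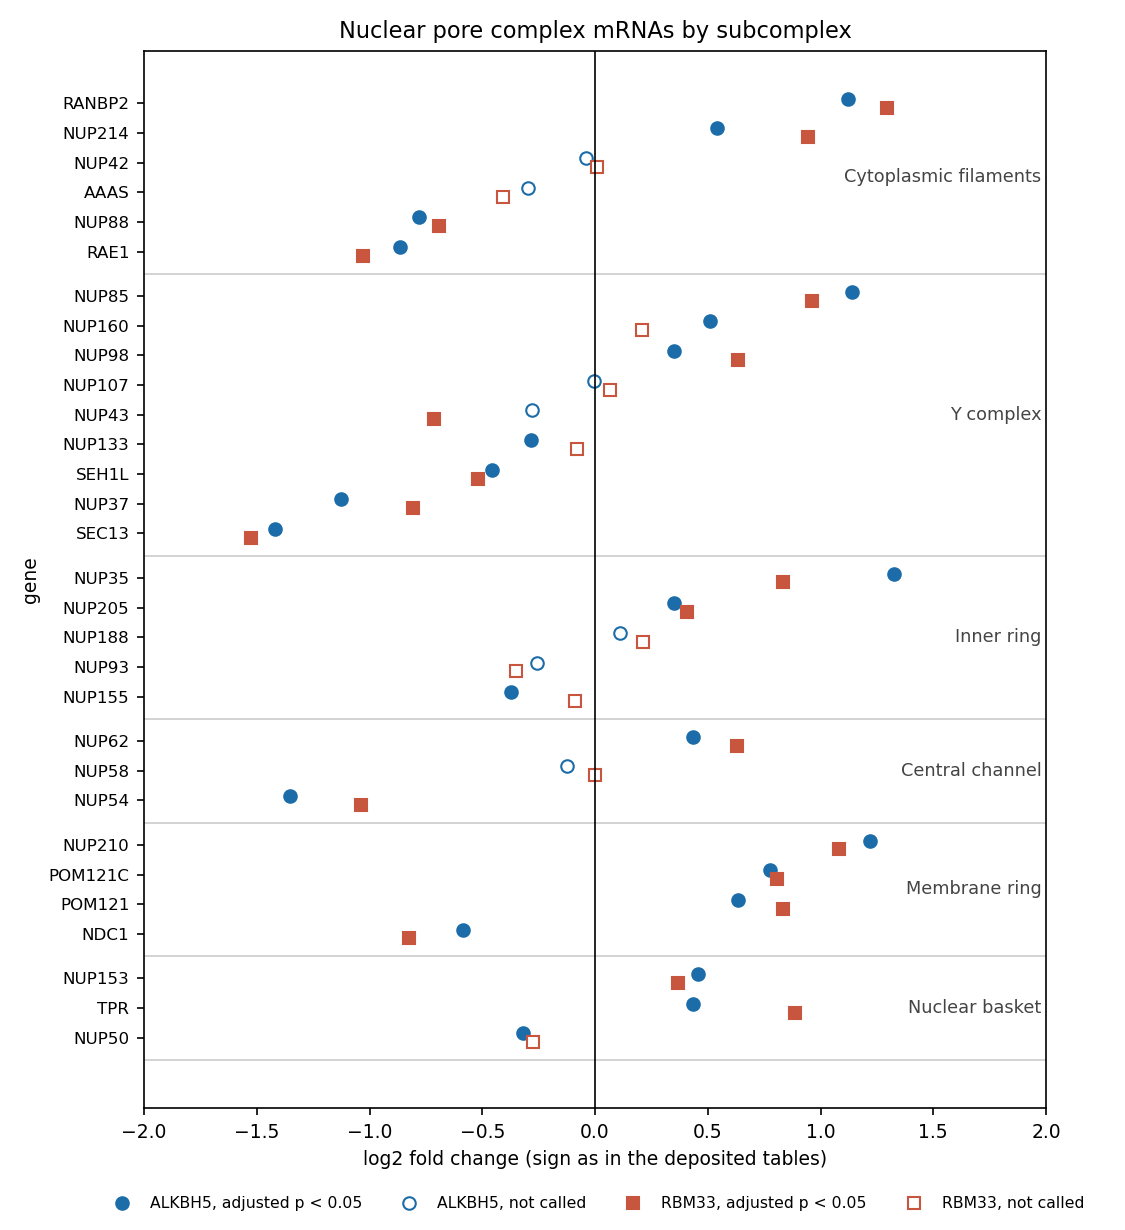
Log2 fold change (horizontal axis, sign as deposited) of each of the 30 nuclear pore genes (rows), grouped by subcomplex; circles are the ALKBH5 table, squares the RBM33 table, and filled symbols mark an adjusted p under 0.05. Every subcomplex holds values on both sides of 0, from SEC13 (-1.42 and -1.52) to RANBP2 (1.12 and 1.30) and NUP35 (1.33 and 0.83).

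The cytoplasmic filaments had 2 positive and 2 negative members of 6 in each of the authors' deposited tables. RANBP2, also known as NUP358, is the large filament protein that carries SUMO ligase activity and binds Ran (ENSG00000153201, hg38 chromosome 2, 108719482 to 108785809, plus strand). Its mRNA stood at 1.12 in the authors' deposited ALKBH5 table (adjusted p = 7.6e-06) and at 1.30 in the RBM33 table (adjusted p = 0.000119). It was abundant, with an average log2 CPM of 7.47 and 7.63 in the authors' deposited tables for ALKBH5 and RBM33. NUP214, an FG protein that docks the export helicase DDX19 (chromosome 9, 131125586 to 131234663), was positive at 0.54 (adjusted p = 0.00074) and 0.95 (adjusted p = 0.000943) in the authors' deposited tables. Its binding partner NUP88 (chromosome 17, 5360963 to 5419676) was negative, at -0.78 (adjusted p = 0.000172) and -0.69 (adjusted p = 0.00228) in the authors' deposited tables. NUP214 and NUP88, whose proteins form a complex, thus had opposite signs in each table. The genomic span of NUP88, introns included, overlaps that of RABEP1 on the opposite strand over 25378 bases. NUP88 spans 58714 bases and has a listed length of 6003, so the overlap of transcript bases is not known. RABEP1 was also negative, at -0.92 and -0.68 in the authors' deposited tables. RABEP1 was the more abundant of the pair, at an average log2 CPM of 7.59 and 7.58 against 5.86 and 6.30 in the authors' deposited tables.

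RAE1, an mRNA export factor that binds NUP98 (chromosome 20, 57351223 to 57379211), was the lowest of the filament group. The authors' deposited ALKBH5 table gave it -0.86 (adjusted p = 0.000172) and the RBM33 table -1.03 (adjusted p = 0.000423). AAAS, the protein ALADIN, had -0.30 and -0.41 in the authors' deposited tables, and NUP42, which binds the export factor GLE1, had -0.04 and 0.01. Neither AAAS (adjusted p = 0.171 and 0.0968) nor NUP42 (adjusted p = 0.865 and 0.971) was called in the authors' deposited tables.

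The Y complex, which forms the outer rings, held both the lowest member and a member among the highest. The authors' deposited ALKBH5 table had 3 positive and 4 negative calls among its 9 genes, and the RBM33 table had 2 and 4. SEC13 (ENSG00000157020, chromosome 3, 10293131 to 10321112, minus strand) also forms the outer cage of COPII vesicles. It had the lowest value of all members, -1.42 (adjusted p = 1.1e-06, F = 115) in the authors' deposited ALKBH5 table and -1.52 (adjusted p = 2.46e-05, F = 86.7) in the RBM33 table. Only 9.04% and 7.78% of protein-coding genes lay below it in the authors' deposited tables. The antisense RNA GHRLOS overlaps SEC13 over 1773 bases and was positive, at 4.81 and 3.47 in the authors' deposited tables. GHRLOS was far less abundant, at an average log2 CPM of 2.84 and 1.61 against 6.61 and 6.95 for SEC13.

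SEH1L, which like SEC13 is also a subunit of the GATOR2 complex of amino acid sensing, was negative at -0.46 (adjusted p = 0.036) and -0.52 (adjusted p = 0.0209) in the authors' deposited tables. NUP37 (chromosome 12, 102073103 to 102120120), a small beta-propeller of the Y complex, stood at -1.13 (adjusted p = 0.000526) and -0.81 (adjusted p = 0.0108) in the authors' deposited tables. It was the second least abundant member, at an average log2 CPM of 3.70 and 4.42 in the authors' deposited tables. Another small propeller, NUP43, was called in the authors' deposited RBM33 table, at -0.71 (adjusted p = 0.00144), but not in the ALKBH5 table, at -0.28 (adjusted p = 0.0636). PCMT1 overlaps NUP43 on the opposite strand over 223 bases and was negative at -1.66 and -1.72 in the authors' deposited tables. PCMT1 was more abundant than NUP43, at an average log2 CPM of 6.98 and 7.27 against 6.21 and 6.39 in the authors' deposited tables.

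NUP85, a scaffold subunit of the Y complex's short arm (chromosome 17, 75205659 to 75235758), went the other way. It stood at 1.14 (adjusted p = 1.08e-05) and 0.96 (adjusted p = 0.00151) in the authors' deposited tables, at an average log2 CPM of 5.03 and 4.76. NUP98 encodes a precursor that is cut into the FG protein NUP98 and the Y complex subunit NUP96 (chromosome 11, 3671083 to 3797792). Its mRNA was positive at 0.35 (adjusted p = 0.0236) in the authors' deposited ALKBH5 table and at 0.64 (adjusted p = 0.00316) in the RBM33 table. NUP160 was called in the authors' deposited ALKBH5 table, at 0.51 (adjusted p = 0.0015), and not in the RBM33 table, at 0.21 (adjusted p = 0.24). The stalk subunit NUP133 was called, at -0.28 (adjusted p = 0.0425), in the authors' deposited ALKBH5 table and stood at -0.08 (adjusted p = 0.696) in the RBM33 table. Its neighbour in the stalk, NUP107, had -0.00 and 0.07 in the authors' deposited tables and was called in neither.

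Inner ring mRNAs other than NUP35 lay between -0.37 and 0.41 in the authors' deposited tables. NUP35, also known as NUP53, tethers the inner ring to the membrane (ENSG00000163002, chromosome 2, 183117513 to 183161680). It had the highest value of all members in the authors' deposited ALKBH5 table, 1.33 (adjusted p = 0.000216), and stood at 0.83 (adjusted p = 0.0397) in the RBM33 table. It was also the least abundant member, at an average log2 CPM of 3.34 and 3.70 in the authors' deposited tables. The large scaffold protein NUP205 was positive at 0.35 (adjusted p = 0.0158) and 0.41 (adjusted p = 0.033) in the authors' deposited tables. Its paralogue NUP188, at 0.11 (adjusted p = 0.395) and 0.21 (adjusted p = 0.234) in the authors' deposited tables, was not called. NUP155 was negative in the authors' deposited ALKBH5 table, at -0.37 (adjusted p = 0.0106), and stood at -0.09 (adjusted p = 0.634) in the RBM33 table. NUP93, the linker that holds the ring together, had -0.26 (adjusted p = 0.0763) and -0.35 (adjusted p = 0.0629) in the authors' deposited tables.

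The proteins NUP62, NUP58 and NUP54 assemble into the FG heterotrimer of the central channel, and their mRNAs stood apart from each other. NUP62 was positive, at 0.43 (adjusted p = 0.00602) and 0.63 (adjusted p = 0.00648) in the authors' deposited tables. NUP54 (chromosome 4, 76114659 to 76148444) was negative, at -1.35 (adjusted p = 2.15e-06) and -1.04 (adjusted p = 0.000188) in the authors' deposited tables. NUP58 lay between them, at -0.12 and 0.00 in the authors' deposited tables, and was not called (adjusted p = 0.436 and 1.0). NUP62 overlaps the genes IL4I1 and AC011452.1 on the same strand, and each had an average log2 CPM under that of NUP62, at 2.75 and 2.48 against 6.77 in the authors' deposited ALKBH5 table.

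Of the 4 membrane ring genes, 3 were positive and 1 negative in each of the authors' deposited tables. NUP210, or gp210 (chromosome 3, 13316235 to 13420322), spans the pore membrane. It stood at 1.22 (adjusted p = 2.42e-06) and 1.08 (adjusted p = 0.00016) in the authors' deposited tables, with an average log2 CPM of 6.84 and 6.90. NDC1, a multispanning membrane nucleoporin needed for pore assembly, was negative at -0.59 (adjusted p = 0.00297) and -0.82 (adjusted p = 0.00264) in the authors' deposited tables.

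POM121 (chromosome 7, 72879365 to 72951440, plus strand) and POM121C (chromosome 7, 75416786 to 75486299, minus strand) are duplicated copies that encode the FG-bearing membrane nucleoporin. The sequences just upstream of their start sites were aligned, and the mRNA sequences were not compared. Over the longest ungapped stretch of the RefSeq upstream sequences (GRCh38.p14), 203 of 213 bases were identical (95.3%). The stretch lies at chr7:72879107-72879319 on the plus strand for POM121 and at chr7:75486323-75486535 on the minus strand for POM121C. The 10 bases that differ are in capitals, and each sequence reads 5′ to 3′ along its gene.
POM121: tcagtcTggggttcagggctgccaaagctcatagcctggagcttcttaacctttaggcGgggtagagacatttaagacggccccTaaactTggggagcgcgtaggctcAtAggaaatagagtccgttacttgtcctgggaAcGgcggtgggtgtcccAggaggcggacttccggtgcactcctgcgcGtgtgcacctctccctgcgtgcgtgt
POM121C: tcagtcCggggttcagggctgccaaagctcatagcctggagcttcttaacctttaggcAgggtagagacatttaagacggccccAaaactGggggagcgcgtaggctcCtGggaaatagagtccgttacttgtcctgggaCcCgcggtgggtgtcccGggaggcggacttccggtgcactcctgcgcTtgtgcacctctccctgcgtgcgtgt

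POM121 stood at 0.64 (adjusted p = 0.000861) and 0.83 (adjusted p = 0.00074) in the authors' deposited tables for ALKBH5 and RBM33. POM121C had nearly the same values, 0.78 (adjusted p = 0.000224) and 0.81 (adjusted p = 0.0011), in the authors' deposited tables. Reads of such copies can be split or lost in counting, so the values are uncertain as separate measurements. The pseudogene POM121B, a further copy on chromosome 7, was also positive, at 1.31 and 1.55 in the authors' deposited tables. RANBP2 has copies as well. The 7 listed RGPD genes, which arose by duplication of RANBP2 sequence on chromosome 2, were all positive, whichever of the authors' deposited tables was used, with medians of 1.58 and 1.63. POM121B and the RGPD genes are no members of the group and were looked up after the members' values had been seen.

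The nuclear basket had its fibre-forming protein and its anchor on the positive side. TPR, the coiled-coil protein of the basket fibres (chromosome 1, 186311652 to 186375693), was positive at 0.43 (adjusted p = 0.0177) in the authors' deposited ALKBH5 table and at 0.89 (adjusted p = 0.00245) in the RBM33 table. It was the most abundant member, at an average log2 CPM of 8.81 and 8.94 in the authors' deposited tables. NUP153, the FG protein that anchors the basket, was positive at 0.46 (adjusted p = 0.00727) and 0.37 (adjusted p = 0.0481) in the authors' deposited tables. The import cofactor NUP50 was negative in the authors' deposited ALKBH5 table, at -0.32 (adjusted p = 0.0283), and stood at -0.27 (adjusted p = 0.132) in the RBM33 table.

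Reads of genes that overlap on opposite strands may be mixed where counting ignores strand, and the strand setting is not stated. Reads of genes that overlap on the same strand may be mixed under any strand setting. Of the 30 members, 10 overlap another gene of the tables, 5 of them on the same strand: NUP107, NUP133, NUP188, NUP62 and POM121C. All overlaps given here are between genomic spans, introns included, and the bases shared between transcripts were not determined. NUP107, which was not called, contains the processed pseudogene KRT8P39, positive at 3.65 and 4.00 in the authors' deposited tables. The part of overlapping genes in the members' values was not tested.

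Set side by side, the tables gave no member opposite calls. The authors' deposited tables shared 12 positive calls: RANBP2, NUP214, NUP85, NUP98, NUP35, NUP205, NUP62, NUP210, POM121, POM121C, TPR and NUP153. They had 7 negative calls in common: SEC13, NUP54, NUP37, RAE1, NUP88, NDC1 and SEH1L. NUP160, NUP133, NUP155 and NUP50 were called in the authors' deposited ALKBH5 table alone, NUP43 in the RBM33 table alone, and AAAS, NUP42, NUP107, NUP188, NUP93 and NUP58 in neither. Over all genes, 59.6% were called in the authors' deposited ALKBH5 table and 51.1% in the RBM33 table, against 76.7% and 66.7% of members. The share of all genes called alike in both is not given here, so the agreement cannot be called particular to the members. Whether the fits behind the tables share libraries is not stated, so these counts are a description. The difference between the baits was not tested, since there are no values per library.

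Members differed between the authors' deposited tables by 0.17 log2 units in the median and by less than 0.5 in all 30 cases. The same difference over all genes is not given here, so the small size cannot be called particular to the members. NUP35 differed the most, with a value lower by 0.49 in the authors' deposited RBM33 table. TPR was higher there by 0.45, and NUP43 was lower by 0.44. NUP214 followed, at 0.40 higher in the authors' deposited RBM33 table than in the ALKBH5 table.

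Across protein-coding genes, values were higher at a greater gene length as listed in the tables, which can exceed that of any single mRNA. Nuclear pore genes have a median listed length of 7831 bases, with a range from 3488 to 13213, against a median of 5228 for protein-coding genes. This is not particular to them, since the 37 nuclear transport factor genes described below have a median of 7216. Across the 30 members, listed length and log2 fold change had a Spearman rho of 0.36 in the authors' deposited ALKBH5 table and 0.48 in the RBM33 table. Across 13210 protein-coding genes it was 0.41 and 0.45. These are descriptions across genes measured in the same libraries. Protein-coding genes were then divided by listed length into 5 classes of equal size. No member fell in the shortest class, up to 2919 bases, and 10 fell in the longest, from 8650 bases. That class had a median of 0.54 in each of the authors' deposited tables, and its 10 members had medians of 0.39 for ALKBH5 and 0.72 for RBM33. From the shortest to the longest class, the positive share of protein-coding genes rose from 8.0% to 52.6% for ALKBH5 and from 5.0% to 46.7% for RBM33. The negative share fell from 53.6% to 15.4% and from 52.3% to 12.7%. Of the 10 members in the longest class, 6 were positive in each table, and 2 and 1 were negative. Relative to the median of its own length class, a member was higher in 13 and lower in 17 cases in the authors' deposited ALKBH5 table, and higher in 16 and lower in 14 in the RBM33 table. Of the 13 positive calls for ALKBH5, 11 lay above the median of their class and 2 below it. These 2 were TPR and NUP98, which differed by -0.11 and -0.19 there and by 0.35 and 0.10 in the authors' deposited RBM33 table.

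Several members departed from genes of like listed length. NUP35 (4025 bases) stood 1.69 above the median of its class in the authors' deposited ALKBH5 table and 1.28 above it in the RBM33 table. NUP85 (5193 bases) was 1.21 and 1.09 above in the authors' deposited tables, and NUP210 (8195 bases) 1.04 and 0.89. RANBP2 (12299 bases), although among the highest values, was 0.58 and 0.76 above its class in the authors' deposited tables. On the other side, SEC13 (5380 bases) differed from its class by -1.35 and -1.40, and SEH1L (10481 bases) by -0.996 and -1.06, in the authors' deposited tables. NUP93 (11123 bases), which was not called, differed by -0.80 and -0.89 from a class whose median was 0.54 in each of the authors' deposited tables. NUP54 differed from its class by -0.99 and -0.59 there. NUP214 (13213 bases) was only 0.001 above the median of its class in the authors' deposited ALKBH5 table and 0.41 above it in the RBM33 table. Its partner NUP88 (6003 bases) differed from its class by -0.71 and -0.56 in the authors' deposited tables.

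**Figure D2:**
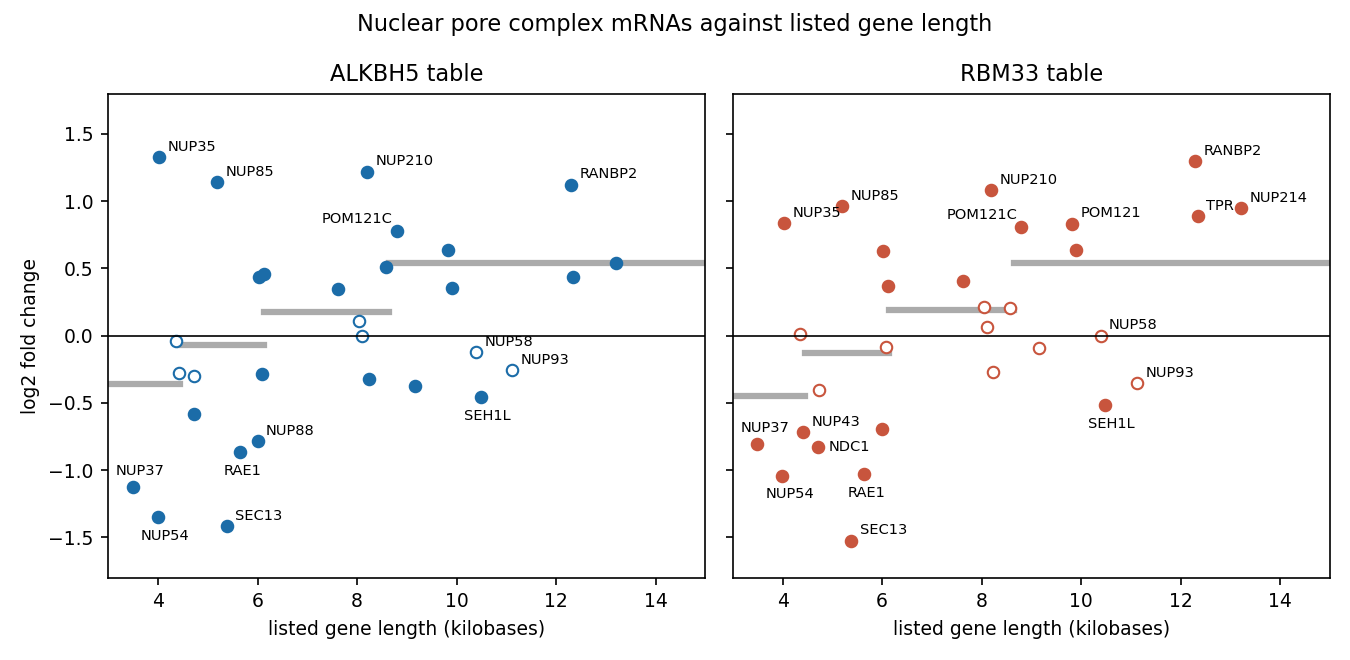
Log2 fold change (vertical axis) against listed gene length in kilobases (horizontal axis) for the 30 nuclear pore genes in each table; filled points have an adjusted p under 0.05, and grey bars are the medians of all protein-coding genes in each length class that holds a member; the shortest class, below the axis range, is not drawn. The drawn medians climb from -0.36 to 0.54 in the ALKBH5 panel, while NUP35 and NUP85 lie above and SEC13 and SEH1L below the bar of their own class.

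Most members were abundant for their tables. In the authors' deposited ALKBH5 table, 28 of 30 members reached the table's median average log2 CPM of 4.05, and NUP35 and NUP37 did not. The median of the authors' deposited RBM33 table, also 4.05, was reached by 29 members and not by NUP35. The median member had an average log2 CPM of 6.27 and 6.39 in the authors' deposited tables, against 4.43 and 4.46 for protein-coding genes. On the scale of average log2 CPM per kilobase of listed length, TPR had the highest level, 5.18 and 5.31, computed from the authors' deposited tables. NUP153 followed at 4.27 in the ALKBH5 table, and SEC13 at 4.52 in the RBM33 table. NUP35 had the lowest level on that scale, at 1.34 and 1.69. These levels are averages over the libraries of each fit, not levels in one fraction, and carry no spread.

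**Figure D3:**
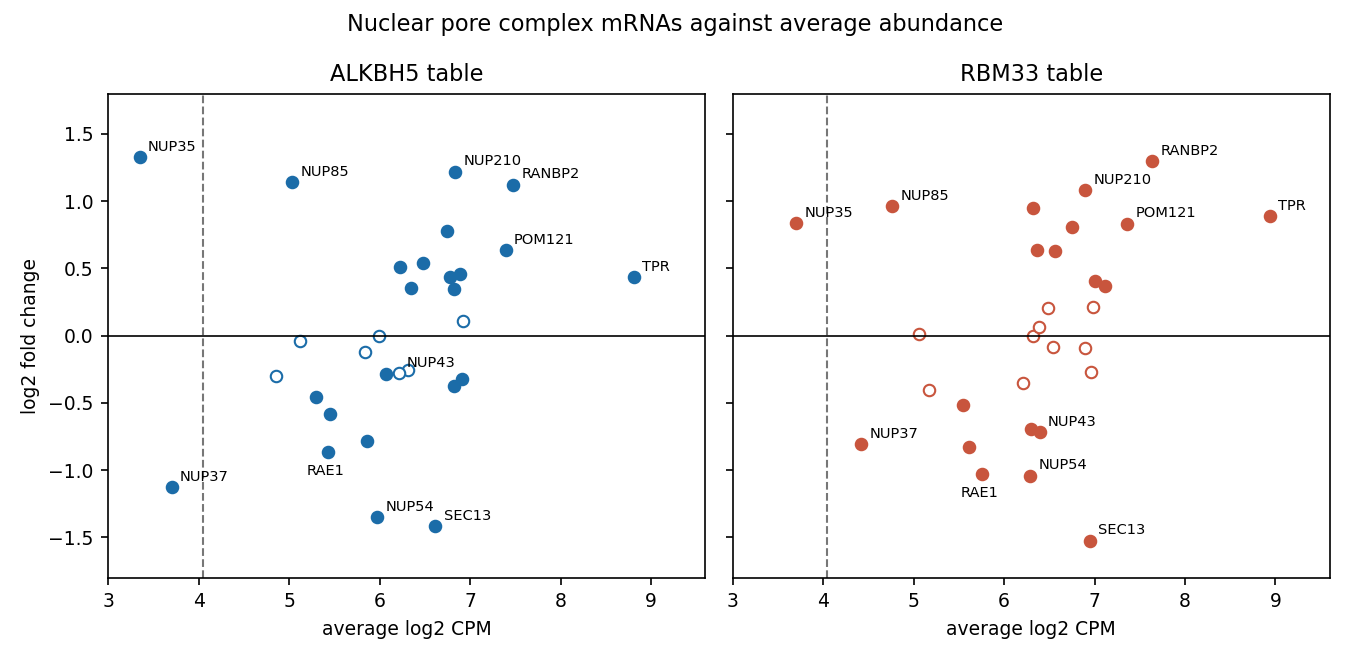
Log2 fold change (vertical axis) against average log2 CPM (horizontal axis) of the 30 nuclear pore genes in each table; filled points have an adjusted p under 0.05, and the dashed line is the median abundance of all genes. TPR is at the right edge (8.81 and 8.94), and NUP35 is left of the line in both panels.

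The mRNAs of nuclear transport factors, which carry cargo through the pore or drive the Ran cycle, lay on both sides of 0. Among 37 such genes, the authors' deposited ALKBH5 table had 6 positive and 21 negative calls, with a median of -0.48. The authors' deposited RBM33 table had 8 positive and 17 negative, with a median of -0.31. As shares of the list, these are 16.2% positive and 56.8% negative for ALKBH5, beside 27.2% and 46.9% of the abundant protein-coding genes above. For RBM33 the list had 21.6% and 45.9%, close to the 22.2% and 45.0% of those genes. RANBP1, a cofactor of Ran GTP hydrolysis, stood at -2.17 (adjusted p = 3.08e-06) and -1.999 (adjusted p = 1.04e-05) in the authors' deposited tables. RAN itself had -1.32 and -1.13, and the importin KPNA2 -1.83 and -1.21, in the authors' deposited tables. The export helicase DDX19B stood at -1.66 and -1.37 in the authors' deposited tables. Its activator GLE1 was negative at -0.48 (adjusted p = 0.0313) and -0.56 (adjusted p = 0.0174) there. DDX19B and GLE1 thus had the opposite sign to NUP214, the docking site of the helicase. Their listed lengths are 4455 and 3508 bases, against 13213 for NUP214, and values rose with listed length across protein-coding genes. The part of length in this contrast was not tested.

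Some transport factors were positive. The import receptor TNPO2 stood at 1.79 and 1.47 in the authors' deposited tables, and NXF1, the main mRNA export receptor, at 0.80 (adjusted p = 0.000244) and 0.65 (adjusted p = 0.0148). AHCTF1, or ELYS, which seeds pore assembly on chromatin and binds the Y complex, was positive at 0.62 (adjusted p = 0.00103) and 0.97 (adjusted p = 0.00104) in the authors' deposited tables. KPNB1, the importin beta of classical import, was negative at -0.88 and -0.65, and the export receptor XPO1 was not called, at 0.23 (adjusted p = 0.144) and 0.11 (adjusted p = 0.563) in the authors' deposited tables. The difference between this list and the pore mRNAs was not tested.

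Nuclear envelope and lamina mRNAs also lay on both sides of 0. Among 19 genes, the authors' deposited ALKBH5 table had 6 positive and 7 negative calls (median -0.08), and the RBM33 table had 4 and 4 (median -0.07). As shares, these are 31.6% and 36.8% for ALKBH5, beside 30.5% and 29.1% of all genes and 27.2% and 46.9% of the abundant protein-coding genes. For RBM33 they are 21.1% and 21.1%, beside 24.0% and 27.0% of all genes and 22.2% and 45.0% of the abundant protein-coding genes. SYNE1 and SYNE2, the giant nesprins that link the nucleus to the cytoskeleton, were positive at 1.89 and 1.64 in the authors' deposited ALKBH5 table and at 1.96 and 2.01 in the RBM33 table. They have listed lengths of 46686 and 32377 bases. The inner membrane protein emerin (EMD) was negative at -1.23 and -1.34, and the lamina-associated TMPO at -1.21 and -1.25, in the authors' deposited tables. EMD is short, with 1944 listed bases, whereas TMPO has 8498.

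**Figure D4:**
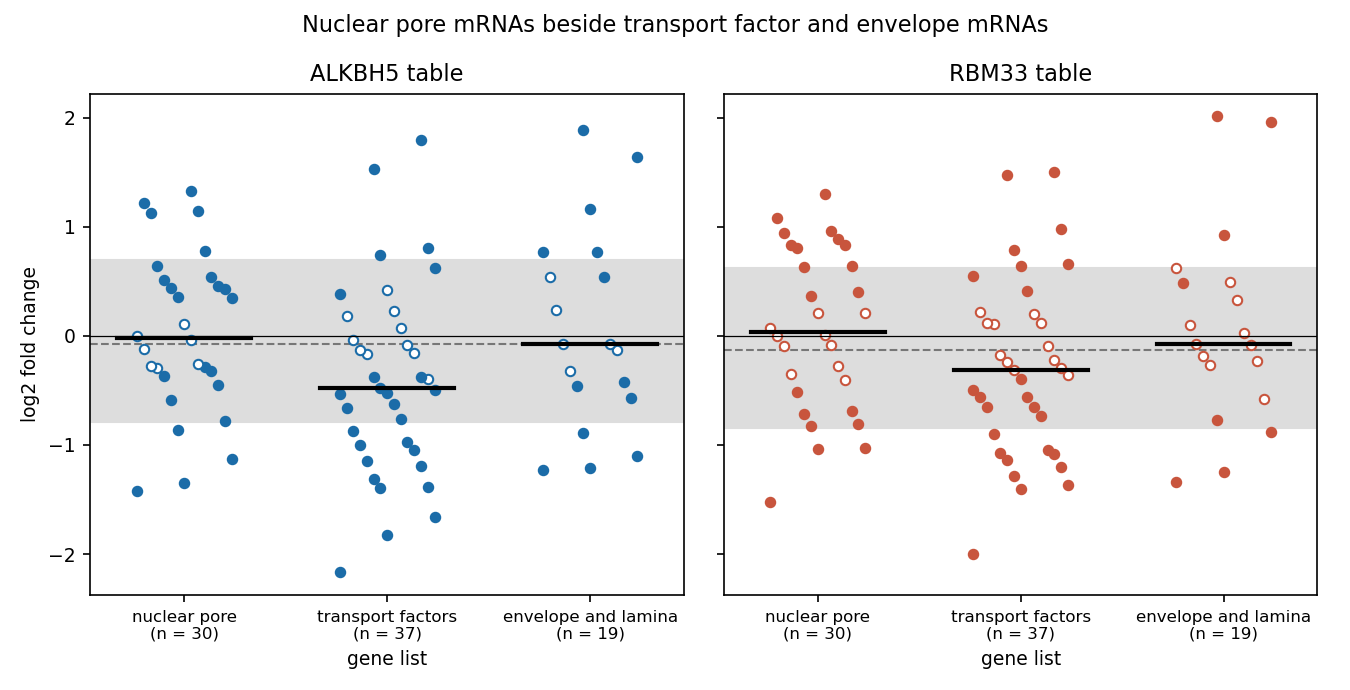
Log2 fold change (vertical axis) of each gene of the nuclear pore, transport factor and envelope lists (horizontal axis) in each table; filled points have an adjusted p under 0.05, black bars are list medians, the dashed line is the median and the grey band the interquartile range of protein-coding genes, and horizontal scatter is for display. The transport factor median lies at -0.48 and -0.31, and the pore median at -0.02 and 0.04.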

How the data were processed

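Members and gene lists were chosen with earlier results of these data known. The submitters' processing notes name edgeR 3.24.3, featureCounts, Subread 1.6.4, HISAT2 2.1.0, cutadapt 1.18 and the build hg38. Which annotation, count filter and strand setting they used is not given in the sources used here. Per the file headers, each deposited table gives per gene the average log2 CPM and the log2 fold change. The deposited F statistic is a score with no fixed range, and the deposited p-value and adjusted p-value come from that F test across all 16324 genes. Recomputing the Benjamini-Hochberg adjustment returned the deposited values.

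Planned count models could not be run on these tables, so the planned fallback was used: calls are the authors' edgeR adjusted p under 0.05, with the sign as direction. Named in full were, by rule, the up to 5 highest and 5 lowest called members of each table, the 3 that differed most between tables, RANBP2, TPR, NUP98, NUP153, POM121 and POM121C, and, of each other list, up to 4 called in both tables and 6 fixed transport genes. Computation used Python 3.11.15 with pandas 2.3.3, SciPy 1.17.1 and Biopython 1.88 (local alignment of upstream sequences), and was tested on simulated data. Depth per library is unknown. Alternatives were a threshold of 0.01, a minimum of 1 log2 unit, a filter at median abundance, other centring, and leaving out genes with near-identical copies or roles outside the pore. Protein sequences were not used here.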

Additional observations from a re-analysis of the deposited data

How the results depend on the processing

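The counts of called pore mRNAs stayed within 1.5 times of those given when p-values were adjusted over protein-coding genes, among genes of at least median abundance, without POM121, POM121C and RANBP2, and without SEC13 and SEH1L. At an adjusted p under 0.01, the negative pore calls in the authors' deposited ALKBH5 table fell from 10 to 6, and positive transport factor calls in the RBM33 table from 8 to 5. Under that threshold TPR, NUP98, NUP205, NUP50, NUP133, NUP155 and SEH1L lost their call for ALKBH5, and NUP153, NUP205, NUP35, NUP37 and SEH1L for RBM33. With a minimum of 1 log2 unit, ALKBH5 kept 4 positive and 3 negative pore calls and RBM33 kept 2 and 3. Transport factor calls were then 2 and 10 for ALKBH5 and 2 and 9 for RBM33, and envelope calls 3 and 3 and 2 and 2. The median pore value for ALKBH5 moved to -0.14 relative to classes of like listed length and to -0.12 without POM121, POM121C and RANBP2, and that for RBM33 to 0.17 relative to protein-coding genes. The cause was not tested. Among genes of at least median abundance, NUP93 was called negative for RBM33. No paired analysis was possible because the tables carry no value for any library; for the same reason leaving out replicates, DESeq2 and a fit without a count filter were not run. Neither table states its contrast or sign, the background of the Vec pull-down could not be subtracted here, and listed lengths may exceed those of the mRNAs.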
